A study of Juglans cathayensis with 6 samples.

Results

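The glutathione S-transferase genes of *Juglans cathayensis*, the Chinese walnut, were examined in husk, which surrounds the nut. Members were the assembled genes whose main or Swiss-Prot description names a glutathione S-transferase or glutathione transferase, and 51 of the 39234 listed genes qualified. RNA from husk labelled 35 days was sequenced in 6 libraries, 3 from a variety labelled brown when freshly cut and 3 from a variety labelled white. The labels give no special treatment, no event from which the days run, no genotype beyond the variety and no tree of origin, so p-values measure only the spread between these libraries, which may be technical. Each colour stands for a single variety, and colour cannot be told apart from any other difference between the varieties.

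Glutathione S-transferases join the tripeptide glutathione to reactive, electron-poor compounds, which are then moved to the vacuole or broken down. The large tau and phi classes are the main conjugating enzymes of plants, and members of both help carry anthocyanins to the vacuole in maize and *Arabidopsis*. Lambda and DHAR enzymes hold a cysteine in place of the usual serine and work by thiol chemistry; DHAR enzymes use glutathione to turn dehydroascorbate back into ascorbate. Glutathione also reacts with quinones, the products of phenolic oxidation, which is the setting in which the family is of interest in tissue that browns.

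The descriptions were checked against the deposited Pfam protein domains, since a name match alone does not show an enzyme. Of the 51 members, 31 carried a glutathione S-transferase domain or, in 1 case, the MAPEG domain of membrane-bound forms, and those 31 also had a glutathione S-transferase match in Swiss-Prot. The KEGG entry named a glutathione S-transferase or, for the zeta genes, maleylacetoacetate isomerase, except in both DHAR3-like genes, where it named valyl-tRNA synthetase. The other 20 members were all described as "glutathione S-transferase T3-like", after a theta-class enzyme. None of these 20 had a glutathione S-transferase domain, a Swiss-Prot match or a KEGG entry, and the 2 that had any Pfam entry carried the NAM-associated domain. The data thus go against the enzyme label for the T3-like group, which is called by its description here and reported apart from the 31 members with a domain. The name rule also left out 10 listed genes that carry a glutathione S-transferase domain. The sums below therefore do not cover every gene with such a domain.

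By class, the 31 domain-bearing members comprised 14 tau, 4 phi, 4 DHAR, 3 lambda and 3 zeta genes, with 1 gene each for theta, TCHQD (named after a bacterial dehalogenase) and the microsomal type. Assembled length had a median of 946 bases among them, against 640 bases among the T3-like genes, whose lengths ran from 212 to 3608 bases. Abundance was given as TPM, a share of all transcripts that is scaled for gene length and can be compared between genes. TPM does not preserve read numbers; sequencing depth is therefore unknown, and counting intervals are not given.

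Chlorophyll a-b binding proteins, as markers of green tissue, summed to 1894 to 3491 TPM in brown and 3156 to 3859 TPM in white libraries, the lowest being brown replicate 2. Of these 14 genes none passed the threshold by limma. Oleosins, seed oil body proteins used as kernel markers, summed to 12.3 to 23.9 TPM in brown and 36.2 to 52.0 TPM in white libraries, and 1 of the 2 genes fell. Secondary-wall cellulose synthases, markers of shell or vascular tissue, summed to 16.7 to 18.7 TPM in brown and 12.9 to 19.8 TPM in white libraries, and 1 of 5 genes rose. The part of other tissues in the results below was not tested, and in whole husk fewer cells of a type and less RNA per cell cannot be told apart. White replicate 2 stood apart: it had 28349 genes at 1 TPM or more against 33146 to 35240 in the other 5 libraries, and it was the lowest white library for 62.7% of members and 60.9% of all listed genes.

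Taken as a sum over all 51 members, glutathione S-transferase transcripts reached 3966, 4249 and 4273 TPM in the brown libraries and 4031, 3865 and 3986 TPM in the white ones. The sums overlapped between the varieties. Their means were 4163 ± 170 TPM in brown and 3961 ± 85.6 TPM in white husk (SD, n = 3 each), and the order of the means reversed when the libraries were rescaled by trimmed-mean factors, with 3853 TPM in brown and 4330 TPM in white husk. A few genes made up most of this total. The 10 most abundant members held 90.6% of it and the most abundant held 23.1%, whereas 30 members averaged under 10 TPM. The 20 T3-like genes together held 2.34%.

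Class sums differed in direction between the varieties. Tau genes summed to 880 ± 82.1 TPM in brown and 639 ± 34.0 TPM in white husk, and phi genes to 1124 ± 123 TPM in brown and 781 ± 188 TPM in white husk (SD, n = 3 each). Most of the tau difference lay in TRINITY_DN11028_c0_g1, since the other 13 tau genes summed to 656 ± 103 TPM in brown and 587 ± 31.1 TPM in white husk, with overlapping libraries. DHAR genes ran the other way, with 744 ± 108 TPM in brown and 1037 ± 197 TPM in white husk. For these 3 classes the libraries of the varieties did not overlap as deposited, and the ratio of brown to white kept its direction after trimmed-mean scaling, at 1.17 for tau, 1.26 for phi and 0.621 for DHAR; the tau and phi sums then overlapped. Lambda sums overlapped, at 941 ± 142 TPM in brown and 1026 ± 342 TPM in white husk, and their ratio of 0.917 became 1.13 without white replicate 2. Zeta sums were 261 ± 10.04 TPM in brown and 271 ± 21.2 TPM in white husk, and they overlapped as deposited. After trimmed-mean scaling the ratio of brown to white was 0.739 for lambda and 0.812 for zeta, and every brown zeta sum then lay below every white one. These sums are descriptions, without a test.

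**Figure D1:**
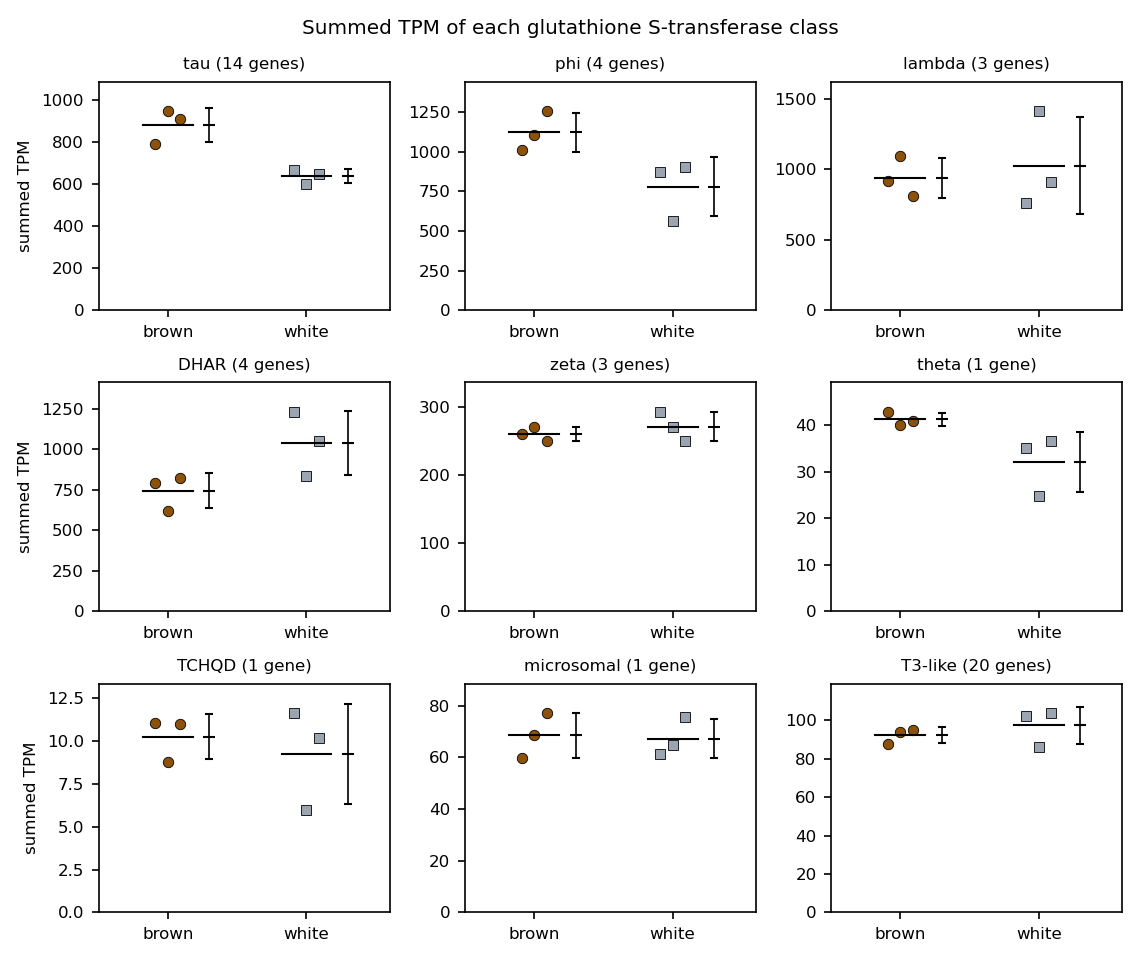
Summed TPM of each glutathione S-transferase class (vertical axes, each from 0) in 3 brown (circles) and 3 white libraries (squares); horizontal lines are means and bars at the right are mean ± SD. Tau and phi sums were higher in every brown library than in any white one, and DHAR sums were lower; without TRINITY_DN11028_c0_g1 the tau sums overlap.

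Single genes were compared by limma on log2(TPM + 1) over all 37829 genes that reached 1 TPM in 3 or more libraries. A gene is said to have risen or fallen in brown relative to white husk at a Benjamini-Hochberg adjusted p under 0.05, and missing that threshold does not show that the varieties were alike. Of the 48 members tested, 5 rose and 3 fell, or 10.4% and 6.25%, while 3.83% of all tested genes rose and 2.17% fell. Over all tested genes those calls were 1450 and 819 as deposited, and 1284 and 1226 after trimmed-mean scaling. Among the 30 tested members with a domain, 2 rose and 1 fell, and among the 18 tested T3-like genes 3 rose and 2 fell. At an unadjusted p under 0.05, 41.7% of tested members passed, beside 21.5% of all tested genes. Of the 5 members that rose, 3 passed the expression filter solely through the brown libraries and could hardly have failed to differ, so nothing is read from the number of rises. The unadjusted share includes these genes, and nothing is read from it either.

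The median log2 fold change, brown minus white, was 0.02 over the 48 tested members and 0.06 over all 51 without a filter, whereas it was 0.19 over all genes tested. Trimmed-mean scaling moved the median of all genes to 0.01 and that of the members to -0.20, and fold changes below are as deposited. All 3 brown libraries lay above all 3 white ones for 15 tested members, and below them for 8. Those are 31.2% and 16.7% of the 48, beside 20.2% and 8.85% of all tested genes. The 15 include 4 members that passed the expression filter through the brown libraries alone, so nothing is read from the 31.2%.

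**Figure D2:**
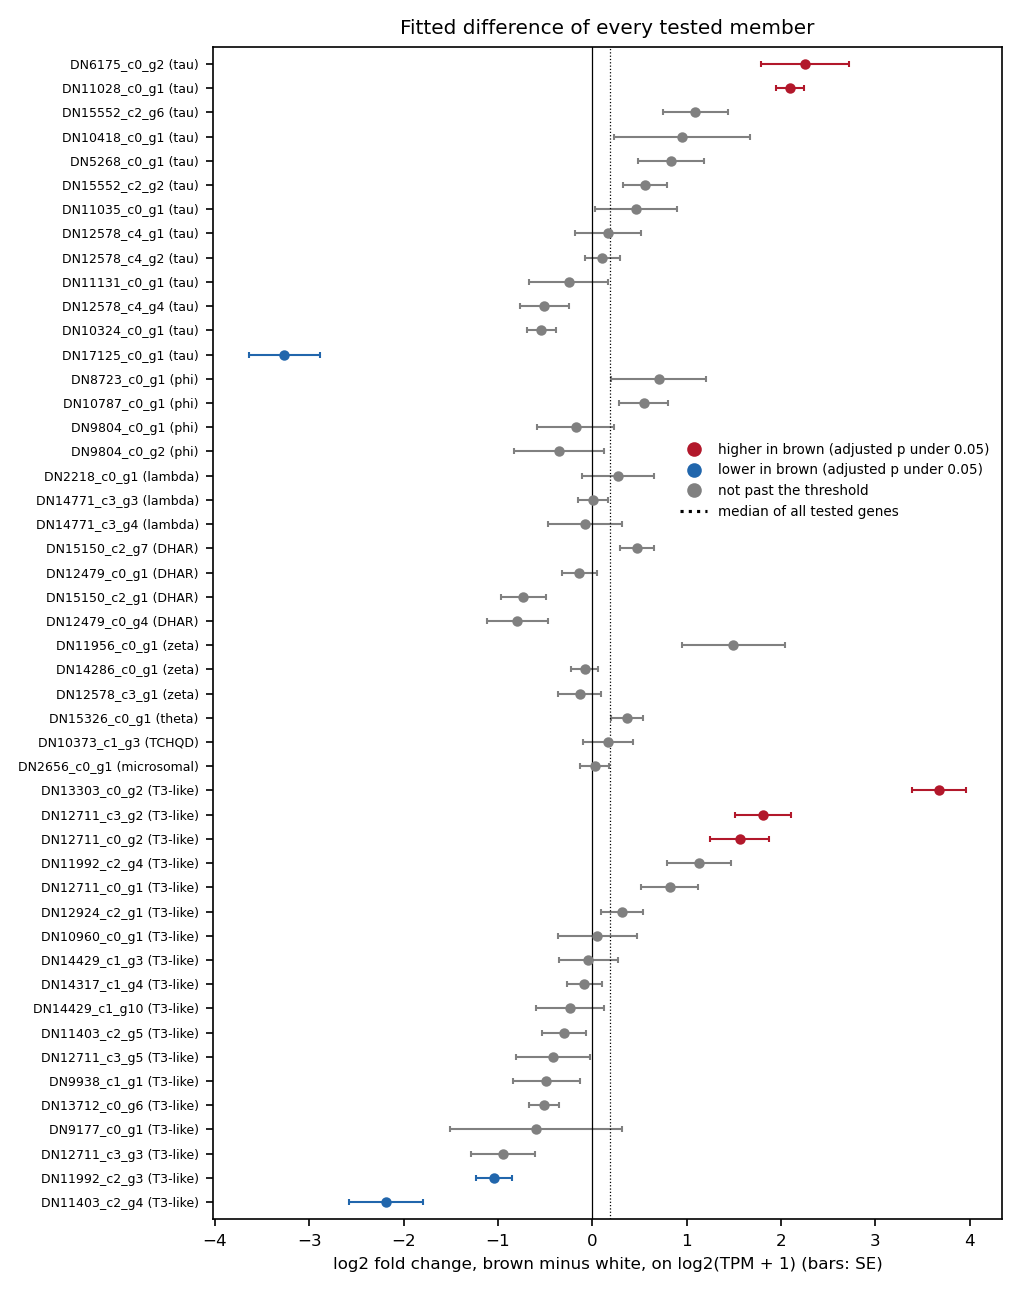
Fitted log2 fold change of the 48 tested members (horizontal axis, brown minus white from log2(TPM + 1); bars are SE), ordered by class; red and blue mark genes that rose and fell, and the dotted line is the median of all tested genes. The 8 called genes belong to the tau class and the T3-like group, and DN13303_c0_g2 is listed at 0 TPM in white husk, so its position depends on the pseudocount.

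All 3 calls among domain-bearing members were tau genes. A probable glutathione S-transferase (TRINITY_DN11028_c0_g1), matched to a *Nicotiana tabacum* protein, had 249, 212 and 213 TPM in the brown libraries and 50.8, 46.5 and 58.2 TPM in the white ones. Every brown library was far above every white one, and the spread inside each variety was small. The log2 fold change was 2.10 ± 0.14 (SE, limma adjusted p = 0.000642), and the call held in each fit that left out 1 library. It was the 8th most abundant member, at 225 ± 21.3 TPM in brown and 51.8 ± 5.93 TPM in white husk (SD, n = 3 each).

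The other calls were 2 genes like GST 23, a tau enzyme of maize, and they moved in opposite directions. TRINITY_DN6175_c0_g2 had 48.1, 51.1 and 48.4 TPM in the brown libraries and 16.5, 3.51 and 13.6 TPM in the white ones, with log2 fold change 2.26 ± 0.47 (SE) and an adjusted p of 0.0360 by limma. The brown values were close together and the white ones were not, white replicate 2 being the lowest. The call was lost without white replicate 3 or any 1 brown library, with a pseudocount of 0.1 and without the mean-variance trend. A gene with no description in the same assembly cluster (TRINITY_DN6175_c0_g1), named because it shares that cluster, also rose, with 5.52, 5.37 and 5.87 TPM in the brown and 0.65, 0 and 0.47 TPM in the white libraries. TRINITY_DN6175_c0_g1 passed the expression filter through the brown libraries alone, so its call is no support for a difference.

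TRINITY_DN17125_c0_g1, the second gene like GST 23, had 0.15, 1.75 and 0.48 TPM in the brown libraries and 18.2, 13.1 and 14.2 TPM in the white ones. It was near 0 in brown husk and the groups did not overlap. The log2 fold change was -3.26 ± 0.37 (SE, limma adjusted p = 0.00497), and this call held in each fit that left out 1 library. Its white libraries alone were enough to pass the expression filter, and 1 brown library reached 1 TPM. Holding in those fits is therefore weak support for a difference. The pair lies in different assembly clusters. Another gene, described as GST 23 (TRINITY_DN5268_c0_g1), averaged 1.95 ± 0.650 TPM in brown and 0.657 ± 0.395 TPM in white husk (SD, n = 3 each, limma adjusted p = 0.224). Set against its sum, TRINITY_DN6175_c0_g2 held 99.7%, 96.7% and 99.0% of the pair's TPM in the brown libraries and 47.5%, 21.1% and 48.9% in the white ones, so that the genes were nearly equal in white replicates 1 and 3. The sum of the pair was 50.0 ± 2.48 TPM in brown and 26.4 ± 9.13 TPM in white husk (SD, n = 3 each). It does not stand for all genes matched to GST 23, since it leaves out TRINITY_DN10324_c0_g1, a probable glutathione S-transferase with that Swiss-Prot match. TRINITY_DN10324_c0_g1 was lower in every brown library than in any white one. It had 26.8 ± 2.19 TPM in brown and 39.5 ± 5.13 TPM in white husk (SD, n = 3 each, limma adjusted p = 0.0883).

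**Figure D3:**
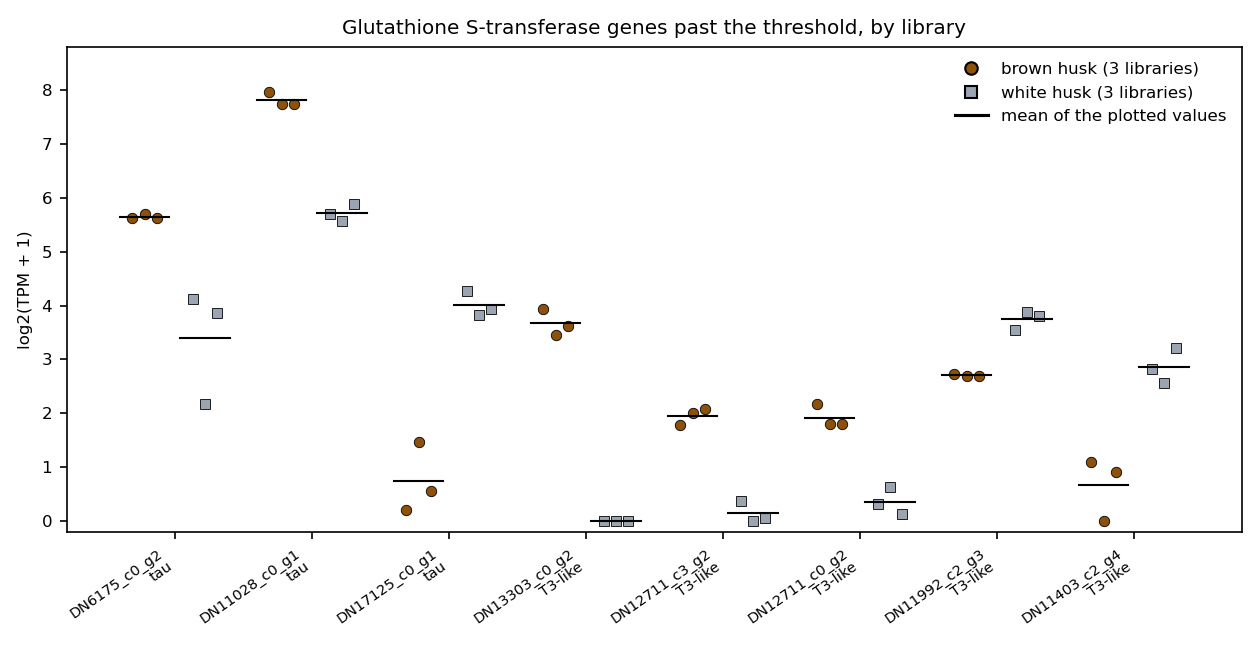
Log2(TPM + 1) of the 8 members past the threshold in each of 3 brown (circles) and 3 white libraries (squares), tau genes at the left and T3-like genes at the right; lines are means. For each gene the brown and white libraries do not overlap, and the T3-like genes that rose stand at or near 0 in white husk.

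Among the remaining 10 tested tau genes none passed the threshold, with log2 fold changes between -0.54 and 1.09 (smallest limma adjusted p = 0.0883). The most abundant tau gene, TRINITY_DN12578_c4_g2, another match to the tobacco protein, had 311, 407 and 418 TPM in the brown libraries and 322, 385 and 340 TPM in the white ones. The groups overlapped, and its log2 fold change was 0.11 ± 0.18 (SE). A parC-like gene of the same cluster (TRINITY_DN12578_c4_g1), after an auxin-responsive tobacco protein, had 83.4 ± 4.06 TPM in brown and 80.7 ± 36.3 TPM in white husk (SD, n = 3 each), with white replicate 2 at 40.0 TPM and white replicates 1 and 3 at 110.0 and 92.0 TPM.

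Some tau genes varied widely among the brown libraries. The U17-like gene TRINITY_DN10418_c0_g1 had 4.85, 53.8 and 27.6 TPM in brown replicates 1, 2 and 3 and 8.79, 10.6 and 10.2 TPM in the white libraries. Its highest brown library was 11.1 times its lowest, and its highest white library 1.21 times its lowest. The other U17-like gene, TRINITY_DN11131_c0_g1, had 14.1, 48.2 and 32.7 TPM in the brown and 42.2, 25.4 and 36.1 TPM in the white libraries. In both genes brown replicate 2 was highest and brown replicate 1 lowest, and the same held for both U8-like genes and for 7 of 14 tau genes in all, as it did for 20.6% of all listed genes. These genes were named after their values were seen. Of the 21 members averaging over 10 TPM, the U17-like genes were the 2 whose brown libraries spanned more than a 2-fold range, while 5 did so among white libraries.

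The U8-like gene TRINITY_DN5191_c0_g1 was not tested, because it reached 1 TPM in 2 libraries; it was listed at 0.48, 3.83 and 1.17 TPM in the brown libraries and at 0 in the white ones. The other U8-like gene, TRINITY_DN11035_c0_g1, had 2.26, 8.22 and 5.12 TPM in the brown and 3.73, 2.07 and 3.83 TPM in the white libraries, so that the groups overlapped. Both U9-like genes lay higher in every brown library than in any white one without passing the threshold (limma adjusted p = 0.123 for TRINITY_DN15552_c2_g6 and 0.223 for TRINITY_DN15552_c2_g2).

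In the phi class 1 gene held nearly all of the transcript. TRINITY_DN10787_c0_g1, matched to an enzyme of *Hyoscyamus muticus*, was the most abundant of all members, with 998, 1081 and 1242 TPM in the brown libraries and 862, 557 and 892 TPM in the white ones. Every brown library was above every white one, but white replicate 2 lay well below the other white libraries. The log2 fold change of 0.55 ± 0.26 (SE) had a limma adjusted p of 0.279. PARB-like TRINITY_DN8723_c0_g1 had 4.77, 23.1 and 9.91 TPM in the brown and 7.88, 4.18 and 6.62 TPM in the white libraries, with brown replicate 2 again the highest. The other phi genes, both of cluster TRINITY_DN9804_c0, averaged under 10 TPM, and no phi gene passed the threshold.

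The lambda class, whose enzymes reduce glutathione adducts of flavonols in *Arabidopsis* and wheat, was led by a pair of L3-like genes of 1 assembly cluster. TRINITY_DN14771_c3_g4 had 553, 725 and 493 TPM in the brown libraries and 378, 1103 and 554 TPM in the white ones. White replicate 2 was the highest of the 6 libraries here, although it was the lowest white library for most members. TRINITY_DN14771_c3_g3 had 351, 356 and 309 TPM in the brown and 365, 303 and 342 TPM in the white libraries, with a log2 fold change of 0.01 ± 0.16 (SE). The third lambda gene, like the maize protein IN2-1 (TRINITY_DN2218_c0_g1), averaged 11.6 TPM. None of the 3 passed the threshold, and the smallest limma adjusted p was 0.723.

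DHAR, the ascorbate-regenerating class, showed a pair of abundant genes that leaned in opposite directions. The DHAR2-like gene TRINITY_DN15150_c2_g1 had 524, 435 and 602 TPM in the brown libraries and 1045, 691 and 871 TPM in the white ones, with log2 fold change -0.73 ± 0.24 (SE) and an adjusted p of 0.128 by limma. Its cluster neighbour TRINITY_DN15150_c2_g7 had 252, 176 and 207 TPM in the brown and 164, 130 and 160 TPM in the white libraries, with log2 fold change 0.47 ± 0.18 (SE) and an adjusted p of 0.188 by limma. In both genes the groups did not overlap, yet neither passed the threshold over all genes.

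The first DHAR2-like gene held 67.5%, 71.2% and 74.4% of the pair's TPM in the brown libraries and 86.4%, 84.2% and 84.5% in the white ones. The pair's sum was 732 ± 106 TPM in brown and 1021 ± 194 TPM in white husk (SD, n = 3 each). An assembled gene can be an allele or a copy that shares reads with its neighbours, so the split between the 2 is less certain than the sum. The DHAR3-like genes, named for the chloroplast form, were lower in level. TRINITY_DN12479_c0_g1 had 8.98, 8.31 and 9.12 TPM in the brown and 10.6, 8.30 and 10.6 TPM in the white libraries, and TRINITY_DN12479_c0_g4 had 4.42, 1.87 and 3.61 TPM in the brown and 7.37, 4.82 and 6.68 TPM in the white ones.

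**Figure D4:**
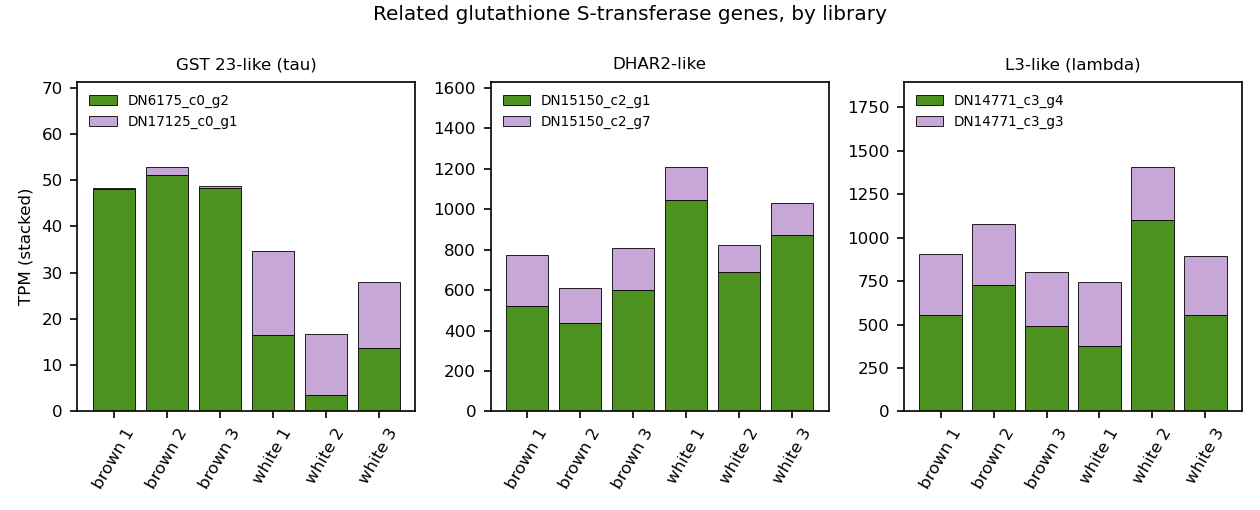
TPM of 3 pairs of related members in each library (stacked bars, axes from 0), brown libraries left of white ones. In the GST 23-like pair TRINITY_DN6175_c0_g2 held 96.7% to 99.7% in brown libraries, against 47.5% and 48.9% in white replicates 1 and 3 and 21.1% in white replicate 2; the DHAR2-like pair was led by TRINITY_DN15150_c2_g1 throughout (67.5% to 74.4% in brown, 84.2% to 86.4% in white libraries), and the L3-like pair was highest in white replicate 2.

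The smaller classes did not pass the threshold. The zeta enzyme is maleylacetoacetate isomerase, of tyrosine breakdown, and its main gene TRINITY_DN14286_c0_g1 had 231, 243 and 222 TPM in the brown and 273, 240 and 224 TPM in the white libraries. A second zeta gene (TRINITY_DN11956_c0_g1) was higher in every brown library, at 7.64, 7.78 and 11.8 TPM, than in any white one, at 2.05, 0.73 and 7.15 TPM, with a limma adjusted p of 0.168. The third, TRINITY_DN12578_c3_g1, had a log2 fold change of -0.14 ± 0.23 (SE).

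Theta TRINITY_DN15326_c0_g1, a T1-like gene that carries a glutathione S-transferase domain, had 42.8, 40.2 and 40.9 TPM in the brown and 35.2, 24.8 and 36.6 TPM in the white libraries (limma adjusted p = 0.275). The groups did not overlap, and the nearest libraries were 40.2 TPM in brown and 36.6 TPM in white husk. The microsomal gene TRINITY_DN2656_c0_g1 averaged 68.5 ± 8.69 TPM in brown and 67.2 ± 7.50 TPM in white husk, and TCHQD TRINITY_DN10373_c1_g3 averaged 10.3 ± 1.30 TPM in brown and 9.28 ± 2.92 TPM in white husk (SD, n = 3 each). Both overlapped between the varieties.

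The T3-like genes were low. Their mean level had a median of 2.41 TPM and a highest value of 21.7 TPM, which placed the best of them 16th among the members. Summed, they reached 92.3 ± 3.97 TPM in brown and 97.4 ± 9.77 TPM in white husk (SD, n = 3 each). The sums overlapped as deposited, but after trimmed-mean scaling every brown sum lay below every white one, with a ratio of 0.811. Of the 18 tested, 3 rose and 2 fell.

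T3-like TRINITY_DN13303_c0_g2 had 14.4, 9.94 and 11.4 TPM in the brown libraries and was listed at 0 in all 3 white ones (limma adjusted p = 0.00117). No other member was at 0 throughout a variety and at 1 TPM or more throughout the other, a pattern held by 0.843% of tested genes at 0 in white husk and 0.494% at 0 in brown husk. Since it passed the expression filter through the brown libraries alone, its p and its calls in other fits are no support for a difference. No fold is given against a group at 0.

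The other T3-like rises belonged to the clusters numbered DN12711. TRINITY_DN12711_c3_g2 had 2.46, 2.99 and 3.24 TPM in the brown and 0.30, 0 and 0.04 TPM in the white libraries (limma adjusted p = 0.0169), and TRINITY_DN12711_c0_g2 had 3.48, 2.47 and 2.49 TPM in the brown and 0.24, 0.54 and 0.10 TPM in the white ones (limma adjusted p = 0.0317). Both calls were lost without brown replicate 2, brown replicate 3 or white replicate 3, and the second also without brown replicate 1 or white replicate 1, with a pseudocount of 0.1 and with quantile normalization. Both passed the expression filter through the brown libraries alone, so their p-values and calls in other fits are no support for a difference. Their fold changes are understated by the added pseudocount of 1 TPM. Members of these clusters did not all lean the same way. TRINITY_DN12711_c3_g3, with the NAM-associated domain, had 0.55, 1.32 and 1.77 TPM in the brown and 2.83, 3.29 and 3.35 TPM in the white libraries (limma adjusted p = 0.159).

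T3-like TRINITY_DN11992_c2_g3, the longest of the group, had 5.62, 5.48 and 5.49 TPM in the brown libraries and 10.7, 13.7 and 13.0 TPM in the white ones, with log2 fold change -1.04 ± 0.19 (SE) and an adjusted p of 0.0231 by limma. Brown values were nearly identical and the groups lay well apart, but the call was lost without white replicate 3 or any 1 brown library. T3-like TRINITY_DN11992_c2_g4 of the same cluster leaned the other way, at 2.29, 1.03 and 1.71 TPM in brown and 0, 0.12 and 0.53 TPM in white libraries. Cluster mates TRINITY_DN11992_c2_g6 and TRINITY_DN11992_c2_g9, without descriptions, rose and were at 0 in white husk. All of these mates passed the expression filter through the brown libraries alone. TRINITY_DN11403_c2_g4, an assembled gene of 234 bases, had 1.14, 0 and 0.89 TPM in the brown and 6.05, 4.88 and 8.24 TPM in the white libraries (log2 fold change -2.19 ± 0.40, SE, limma adjusted p = 0.0225), a call lost without brown replicate 2 or 3 or white replicate 1 or 3. With a pseudocount of 0.1 its log2 fold change was -3.67 and the call was also lost. The white libraries alone were enough for this gene to pass the expression filter. The 13 tested T3-like genes without a call had log2 fold changes of -0.95 to 1.13. The 2 that were not tested, TRINITY_DN12061_c3_g4 and TRINITY_DN12711_c3_g7, reached at most 4.93 and 2.36 TPM in any library.

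Trinity groups assembled genes that share sequence into clusters, so cluster mates were listed for each member. The 20 T3-like genes lay in 13 clusters with 58 other assembled genes, and in 8 of the 13 clusters other genes had descriptions that name no glutathione S-transferase. TRINITY_DN13303_c0_g2 shared its cluster with genes for ferrochelatase and MODIFIER OF SNC1 11-like proteins, and TRINITY_DN11992_c2_g3 shared its own with a CCCH zinc finger gene. Members with a domain could have such mates too, since the DHAR2-like cluster holds genes described as RER1A-like and heat shock proteins, whereas the 3 called tau genes shared a cluster with no described gene.

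Since close copies can split reads, TPM was also summed per cluster over the whole table and tested the same way. Of 36 tested clusters that hold a member, 3 rose and 1 fell, beside 3.72% and 1.90% of all 15502 tested clusters. They were the clusters of the tau genes TRINITY_DN11028_c0_g1 and TRINITY_DN6175_c0_g2, which rose, and that of TRINITY_DN17125_c0_g1, which fell. TRINITY_DN12711_c0, which holds T3-like genes only, also rose (limma adjusted p = 0.0437). The clusters of TRINITY_DN11028_c0_g1 and TRINITY_DN17125_c0_g1 hold 1 gene each, so their sums repeat the gene values. The clusters of the other called T3-like genes did not pass, and that of TRINITY_DN11992_c2_g3 had a log2 fold change of 0.15 ± 0.12 (SE). These clusters also hold other genes, which make up most of their sums. TRINITY_DN11403_c2 averaged 322 TPM in brown and 457 TPM in white husk, against 0.677 and 6.39 TPM for TRINITY_DN11403_c2_g4. A difference in the called gene could hardly show in such a sum, so nothing is read from these results. The rise of TRINITY_DN12711_c0 held in 1 of the 6 fits that left out a library, and that of the TRINITY_DN6175_c0 cluster in 2 of 6. The DHAR2-like cluster, which also holds 6 other genes, had a limma adjusted p of 0.275.

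Genes that make, recycle and use glutathione were examined beside the transferases in a list of 122 genes, of which 120 were tested. In brown husk 6 rose and 5 fell, beside 3.83% and 2.17% of all tested genes, and the median log2 fold change was 0.17 against 0.19. Of the falls, TRINITY_DN9633_c0_g1, TRINITY_DN9686_c0_g1 and TRINITY_DN13809_c0_g6 passed the expression filter solely through the white libraries and could hardly have failed to differ. Nothing is therefore read from the number of falls, and the calls of these genes in other fits are no support for a difference. Adenylylsulfate reductase reduces activated sulfate on the way to cysteine. Of 8 genes listed under that name 2 were higher, both of 1 assembly cluster, and the median log2 fold change was -0.04. The 8 include the reductase-like genes TRINITY_DN14234_c0_g6, TRINITY_DN14234_c0_g7 and TRINITY_DN14416_c1_g4, which had a Thioredoxin domain and no KEGG entry. TRINITY_DN11886_c0_g1 had 64.7, 56.4 and 59.3 TPM in the brown and 27.4, 21.9 and 27.2 TPM in the white libraries, with log2 fold change 1.21 ± 0.14 (SE) and an adjusted p of 0.00555 by limma.

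That call held in each fit that left out 1 library. Its cluster neighbour TRINITY_DN11886_c0_g2 had 14.9, 17.4 and 18.1 TPM in the brown and 7.40, 7.30 and 8.14 TPM in the white libraries (limma adjusted p = 0.0156), a call lost without brown replicate 2 or 3 or white replicate 3. Of 15 genes of cysteine synthesis 1 rose, a serine acetyltransferase gene (TRINITY_DN14628_c0_g2) with 182, 135 and 151 TPM in the brown and 68.3, 35.1 and 52.4 TPM in the white libraries (log2 fold change 1.61 ± 0.25, SE, limma adjusted p = 0.0133). Its groups were well separated, although the call was lost without brown replicate 3 or white replicate 3. ATP sulfurylase TRINITY_DN12177_c0_g1, of the first step, had 194 ± 20.5 TPM in brown and 96.9 ± 46.1 TPM in white husk (SD, n = 3 each, limma adjusted p = 0.139).

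The enzymes that assemble and recycle glutathione did not pass the threshold. Glutamate-cysteine ligase, the committed step, had 101 ± 8.99 TPM in brown and 93.6 ± 20.1 TPM in white husk in its main gene (TRINITY_DN14331_c1_g6), and glutathione synthetase (TRINITY_DN14013_c2_g2) had 30.5 ± 3.16 TPM in brown and 20.4 ± 7.85 TPM in white husk (SD, n = 3 each, limma adjusted p = 0.733 and 0.260). Among 3 glutathione reductases and 5 glutathione peroxidases none was called. Reductase TRINITY_DN14991_c2_g6 had 72.3, 59.7 and 63.8 TPM in the brown and 46.0, 32.2 and 41.2 TPM in the white libraries. Its log2 fold change was 0.71 ± 0.17 (SE, limma adjusted p = 0.0535). Reductase TRINITY_DN12418_c1_g1 was also higher in every brown library than in any white one (limma adjusted p = 0.207). The most abundant reductase, TRINITY_DN14929_c0_g2, overlapped between the varieties. Glutaredoxins, small thiol-disulfide enzymes, had 2 of 22 tested genes higher and 1 lower. Glutaredoxin-C9-like TRINITY_DN2268_c0_g1 had 22.8 ± 3.10 TPM in brown and 6.75 ± 2.44 TPM in white husk, and monothiol glutaredoxin-S1-like TRINITY_DN13788_c2_g7 had 25.5 ± 14.4 TPM in brown and 4.55 ± 0.510 TPM in white husk (SD, n = 3 each).

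The S1-like call (limma adjusted p = 0.0478) held without brown replicate 1 and was lost without any other single library, with a pseudocount of 0.1, with trimmed-mean or quantile scaling, without the trend and with array weights, and the C9-like call without white replicate 3 or any 1 brown library. Glutaredoxin-C1-like TRINITY_DN9686_c0_g1 fell, with 0, 0 and 0.79 TPM in the brown and 3.56, 6.13 and 10.9 TPM in the white libraries, a call that held without white replicate 1 and was lost without any other single library and with array weights. ABCC transporters carry glutathione conjugates into the vacuole, and 1 of 27 rose and 1 fell. ABCC3 TRINITY_DN16015_c1_g1 had 81.8, 94.2 and 86.8 TPM in the brown and 26.9, 6.06 and 23.4 TPM in the white libraries (log2 fold change 2.39 ± 0.48, SE, limma adjusted p = 0.0323), with white replicate 2 the lowest. That call was lost without white replicate 3 or any 1 brown library, with a pseudocount of 0.1 and without the trend.

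ABCC10-like TRINITY_DN9633_c0_g1 fell, at 0, 0 and 0.92 TPM in the brown and 10.4, 5.76 and 4.25 TPM in the white libraries, while the most abundant ABCC gene, TRINITY_DN16064_c3_g1, had 199 ± 3.72 TPM in brown and 209 ± 62.1 TPM in white husk (SD, n = 3 each). The call of the ABCC10-like gene was lost without brown replicate 1 or 2 and with a pseudocount of 0.1, where its log2 fold change was -4.89. Falls were also found for gamma-glutamyltranspeptidase 3-like TRINITY_DN14554_c4_g2, of glutathione breakdown, and for oligopeptide transporter 7-like TRINITY_DN14694_c0_g1. The transpeptidase gene had 6.82, 5.57 and 4.95 TPM in the brown and 16.6, 10.9 and 16.1 TPM in the white libraries, and passed solely in the fits without white replicate 2 or with no library left out. The transporter gene had 1.96, 1.56 and 2.21 TPM in the brown and 11.8, 8.01 and 11.1 TPM in the white libraries (limma adjusted p = 0.00859); leaving out white replicate 3 removed this call. The last of the 5 falls was a low lactoylglutathione lyase gene (TRINITY_DN13809_c0_g6), with 0, 0.80 and 0.38 TPM in the brown and 5.09, 7.0 and 3.16 TPM in the white libraries, a call lost in every fit that left out 1 library. The 15 genes of the list that were the most abundant of their kind and were not called had log2 fold changes of -0.23 to 1.13 (smallest limma adjusted p = 0.139). The most abundant was glutaredoxin-C2-like TRINITY_DN13040_c1_g6, at 1001 ± 32.9 TPM in brown and 779 ± 79.6 TPM in white husk (SD, n = 3 each, limma adjusted p = 0.352).

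**Figure D5:**
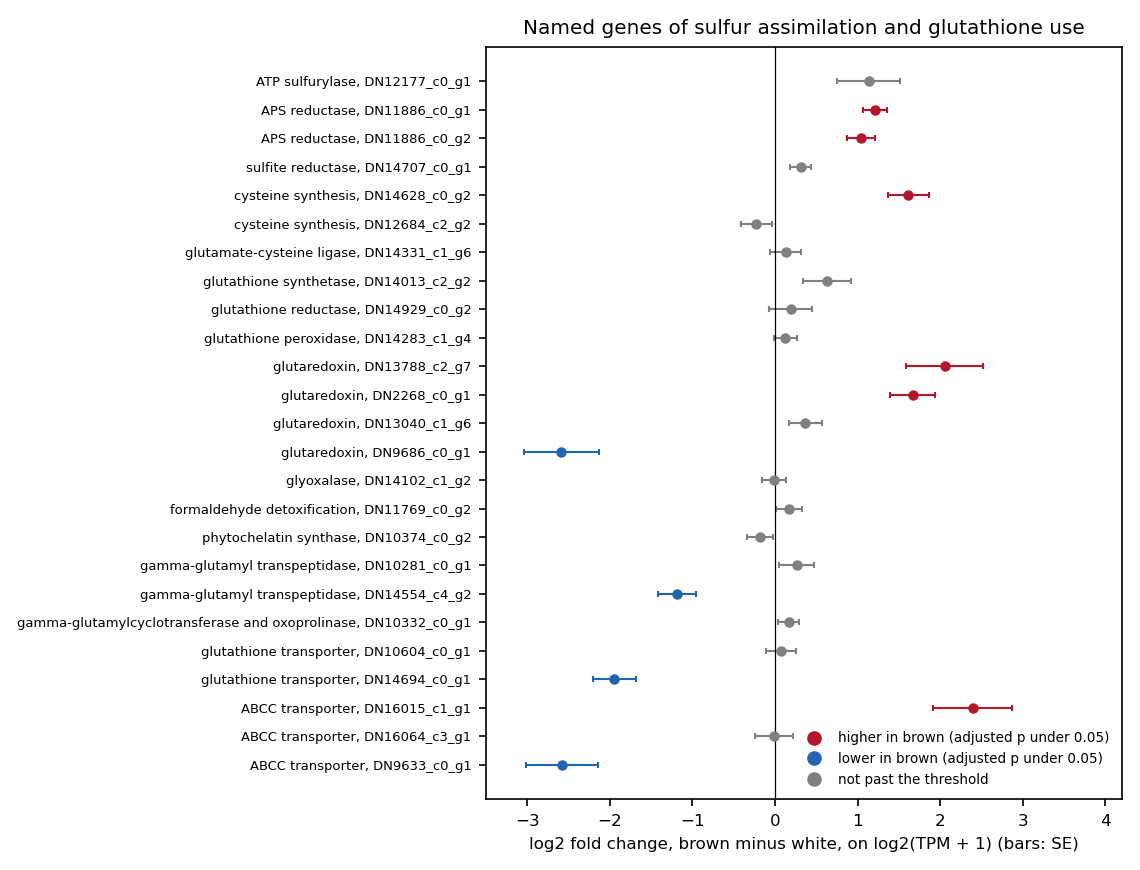
Fitted log2 fold change (horizontal axis, brown minus white from log2(TPM + 1); bars are SE) for the named genes of sulfur assimilation and glutathione metabolism, ordered from sulfate activation to transport; red and blue mark genes that rose and fell. The adenylylsulfate reductase genes DN11886_c0_g1 and DN11886_c0_g2 and the serine acetyltransferase gene DN14628_c0_g2 lie to the right, while the ligase, synthetase, reductase and peroxidase genes are not past the threshold.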

How the data were processed

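Values are TPM as deposited by the authors, 1 column per library, for genes whose identifiers are in Trinity format. Per the submitters' processing notes, cutadapt and FastQC were used. The assembler's version, quantifier, strand setting and filter: not given in the sources used here. Each listed gene reached 2.01 TPM or more in some library. Gene length is as deposited.

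Libraries were grouped by labelled colour. TPM were tested as log2(TPM + 1) with limma 3.58.1 in R 4.3.3 (mean-variance trend, no covariates, Benjamini-Hochberg over all genes at 1 TPM or more in at least 3 libraries). The fit was tested on simulated data, where it missed most of the smallest changes, found nearly all of the largest, and made more false calls than the nominal rate. Classes followed name patterns for 43 members, and 8 were assigned from their protein matches after these were seen. Members and lists were chosen with earlier results of these data known. Named members were all past the threshold, the 10 most abundant, the top gene of each class and those at 0 throughout a variety; in the glutathione list, up to 10 called genes and each top gene. Genes outside this rule are named with their values as examples of a class. Alternatives covered pseudocount, filter, scaling, variance model, replicate block, single libraries left out and clusters.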

Additional observations from a re-analysis of the deposited data

How the results depend on the processing

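Members that rose, 5 as reported, numbered 3 with a pseudocount of 0.1, 3 with a filter of 5 TPM, 2 with the replicate block, and 2 to 5 with 1 library left out. Those that fell, 3 as reported, numbered 1 to 4 with 1 library left out. Trimmed-mean scaling gave 5 rises and 4 falls among members, and quantile normalization gave 4 rises and 4 falls. Settings added after seeing the data gave 2 rises and 1 fall among members with a domain, and 3 rises and 1 fall without the second library of both groups. Over all genes the replicate block gave 735 higher and 490 lower, quantile normalization gave 1275 lower, and leaving out 1 library gave 410 to 1255 higher and 259 to 1013 lower. Of the glutathione list, 5 genes fell as reported, against 3 with a pseudocount of 0.1, 2 with a filter of 5 TPM, 8 with quantile normalization, 2 with the replicate block and 1 to 4 with 1 library left out. In those last fits 1 to 6 genes of the list rose. Its rises, 6 as reported, numbered 4 with a pseudocount of 0.1 and 7 with a filter of 5 TPM or with quantile normalization. Clusters that rose numbered 1 with the replicate block and 1 to 3 with 1 library left out, and 1 to 2 fell. The summed TPM, brown minus white, was 202 as deposited, -477 with trimmed-mean scaling and 147 to 299.93 with 1 library left out. The cause of these changes was not tested. Of the 8 called members, TRINITY_DN11028_c0_g1 and TRINITY_DN17125_c0_g1 passed in every fit that tested them. So did TRINITY_DN13303_c0_g2, which entered through the brown libraries alone, so this is no support. For TRINITY_DN17125_c0_g1 the support is weak, since its white libraries alone were enough to pass the filter. The replicate block ended the calls of TRINITY_DN6175_c0_g2, TRINITY_DN12711_c3_g2, TRINITY_DN12711_c0_g2 and TRINITY_DN11992_c2_g3. No called gene named here changed sign. Same-numbered libraries were not shown to be paired: their deviations from the group means correlated at 0.06, 0.06 and 0.01, although each library correlated best with its own number. TPM keeps no depth, which limits what can be said of low genes.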
